A study of Mus musculus with 4 samples.

Results

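The genes described here are the amino acid and peptide transporters of the mouse small-intestinal epithelium. They are the 64 gene columns, of 25289, whose symbol is Slc1a, Slc3a, Slc6a, Slc7a, Slc15a, Slc36a, Slc38a or Slc43a followed by digits only. The rule uses symbols and no measured value, though it was set with earlier results of these data known. All 64 had at least 1 count in the cells kept. Single-cell RNA libraries were made with inDrop v2, a droplet method that primes on the poly(A) tail, from sorted EpCAM+ CD45- TER119- DAPI- cells. The 2 Lats-deleted libraries came from adult C57BL/6J mice of the genotype Lrig1-CreERT2 Lats1fl/fl Lats2fl/fl. The 2 control libraries came from adult C57BL/6J mice with the same floxed alleles (Lats1fl/fl Lats2fl/fl) and without the Cre. All mice, controls included, had an intraperitoneal dose of 2 mg tamoxifen, and tissue was collected at day 7. CreERT2 is driven from Lrig1, a gene active in crypt cells that include stem cells, so the recombinase acts in those cells and the allele passes to their progeny. The labels do not say that each library is a separate animal, so a p-value here measures the spread between these libraries.

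Dietary protein reaches the enterocyte as free amino acids and as short peptides. Carriers in the brush border take them up, and a second set in the basolateral membrane passes them to the blood. Cells that divide or make much protein use another set of plasma membrane carriers, among them the 4F2hc-linked exchangers and the SNAT and ASCT carriers, to supply their own synthesis. LATS1 and LATS2 are the Hippo pathway kinases that restrain the coactivators YAP and TAZ. The comparison sets epithelium of the deletion genotype against that of controls without the Cre. Effects of the Cre and of the loss cannot be told apart.

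The depth and make-up of the libraries bear on every value below. The Lats-deleted libraries kept 726 and 1289 cells with medians of 3715.5 and 3848 counts per cell, and the control libraries kept 774 and 515 cells with medians of 1708 and 1995. Cells were grouped into clusters without using the transporter genes, and clusters carry a name ending in "-like" only where marker genes supported it. Enterocyte-like cells were 5.10% and 1.63% of the kept cells in the Lats-deleted libraries and 80.4% and 76.9% in the controls. Lats-deleted library 1 held 71 stromal-like cells, and Lats-deleted library 2 held 184 stomach-like cells, states in which neither control library had a cell. The summed level of 9 stromal markers was 1368 and 154 CPM (counts scaled to a common library total) in Lats-deleted libraries and 36.8 and 26.9 CPM in the controls. The 10 stomach markers with a column summed to 14.0 and 9290 CPM in Lats-deleted libraries and to 18.1 and 17.9 CPM in the controls. The part of these cells in the transporter values of all kept cells is given below by leaving them out. Pairs of libraries shared between 4 and 12 kept barcodes. Xist had 640.0 and 505 CPM in Lats-deleted libraries, against 9.35 and 6.51 CPM in the controls. The sum of 4 Y-linked genes was 34.8 and 25.4 CPM in Lats-deleted libraries and 93.5 and 108 CPM in the controls. These sex-linked genes differed with the group, so sex and the deletion cannot be told apart for any gene. Lats1 had 7.58 and 9.78 CPM in Lats-deleted libraries, against 20.6 and 32.6 CPM in the controls, and Lats2 had 29.8 and 21.3 CPM in Lats-deleted libraries, against 8.11 and 9.77 CPM in the controls. The labels do not say which exons are floxed, so reads near the 3′ end cannot check the deletion.

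In all kept cells, every tested gene of the absorptive list was lower in the Lats-deleted libraries, and 7 of 10 tested carriers of the growth set were higher. Both lists were drawn up with earlier results of these data known, so the split by list describes these genes and is no test of the lists. Counts were summed over the cells of a library and tested over all genes with edgeR's quasi-likelihood test, with an adjusted p (Benjamini-Hochberg) under 0.05 as the threshold for a call. Of 12561 genes tested, 30.8% were called, 15.3% upward and 15.5% downward relative to the controls, with a median log2 fold change of 0.05, and 42.6% had an unadjusted p under 0.05. Of the 64 transporters, 41 passed the filter on low counts, of which 10 were called higher, 13 lower and 18 were not called. The 2 groups of libraries did not overlap for 32 of these 41, against 68.8% of all genes tested. Of the 9 absorptive carriers, 8 were tested and all 8 were called lower, with a median log2 fold change of -4.21. The 11 carriers of the growth set gave 10 tested genes, 7 higher and 3 not called, with a median of 1.83. DESeq2 called no growth gene lower either, and Slc3a2 and Slc43a1 were the 2 lower at an unadjusted p under 0.05 with edgeR. Filtering bears on these counts, because 3 of the 8 absorptive genes (Slc3a1, Slc6a19 and Slc7a8) passed only through the control libraries, and 1 growth gene (Slc1a4) only through the Lats-deleted ones. The same holds of 3 called genes outside those lists, Slc7a15 through the controls and Slc6a9 and Slc6a14 through the Lats-deleted libraries. In summed cells, fewer cells of a type and less RNA per cell cannot be told apart.

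**Figure D1:**
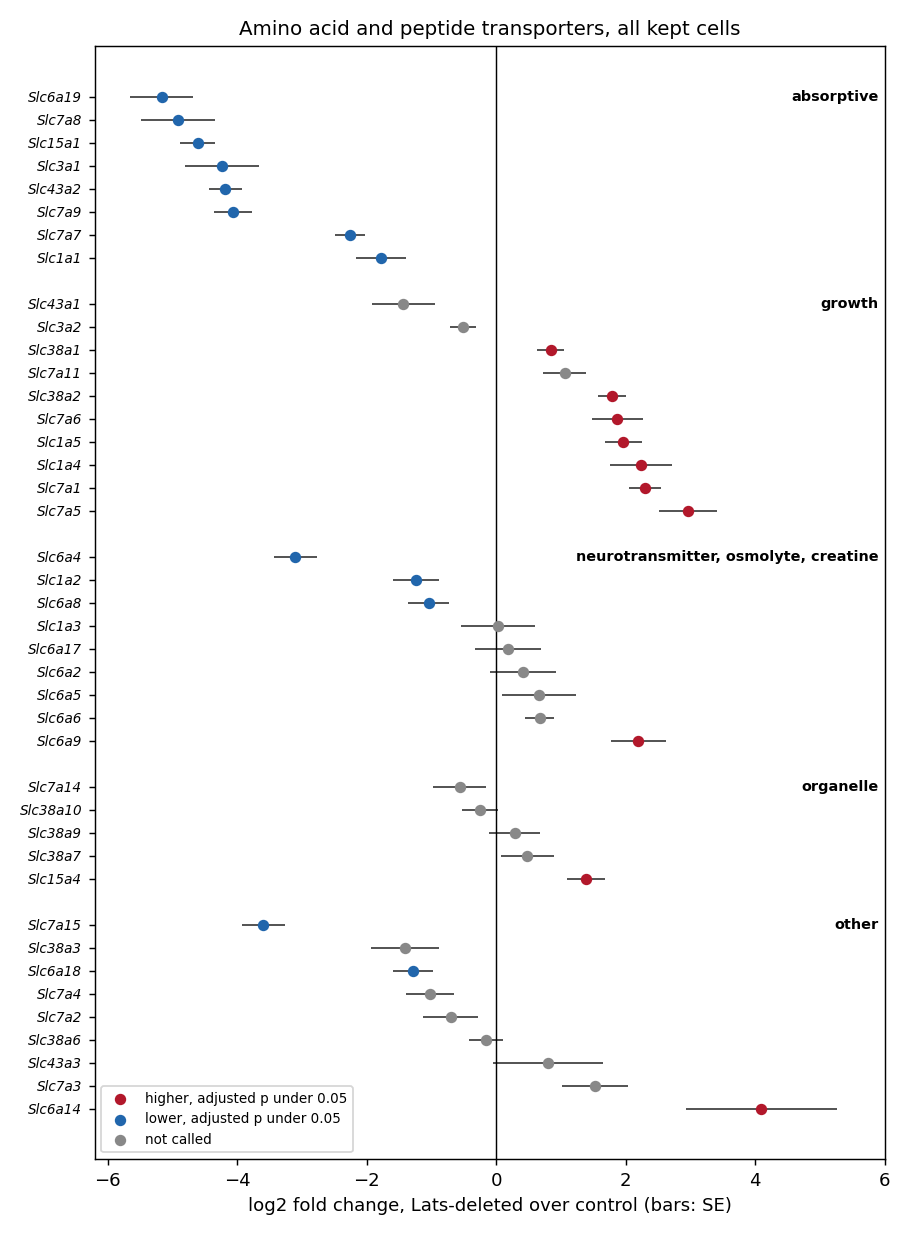
Log2 fold change (Lats-deleted over control, x axis) of the 41 transporters that passed the filter on low counts, in all kept cells, by role. Points are fitted values from 2 libraries per group, bars are standard errors, and colour marks an adjusted p under 0.05. All 8 absorptive genes lie left of 0, from -5.17 (Slc6a19) to -1.78 (Slc1a1), and 8 of 10 growth genes lie right of it, up to 2.96 (Slc7a5).

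The brush-border carriers were the first group. Slc6a19 (ENSMUSG00000021565.16, chr13:73679745-73704865, minus strand) encodes B0AT1, the sodium-dependent carrier of neutral amino acids. Slc6a19 stood at 10.8 and 3.57 CPM in Lats-deleted libraries, against 264 and 232 CPM in the control libraries. Its log2 fold change was -5.17 with an SE of 0.49 (n = 2 libraries per group, adjusted p = 0.000582 by edgeR's quasi-likelihood test), 36-fold lower. Both Lats-deleted libraries lay far below both controls, and the pair of Lats-deleted values differed more between themselves, in proportion, than the pair of controls. Slc15a1 (ENSMUSG00000025557.10, chr14:121459621-121505252, minus strand) encodes PepT1, which takes up dipeptides and tripeptides together with protons. Slc15a1 had 4.87 and 6.82 CPM in Lats-deleted libraries, against 160.0 and 132 CPM in controls, a log2 fold change of -4.61 with an SE of 0.27 (adjusted p = 0.00019, edgeR). All 4 values of Slc15a1 were close to those of the other library of the same group. The gene model of Slc6a19 has an antisense column (Slc6a19os), which held 6 and 11 counts in the Lats-deleted libraries and 2 and 2 in the controls. Whether the counting used strand is not given in the sources used here, so reads of a gene and of its antisense partner cannot be told apart.

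The cystine and dibasic amino acid carrier is made of 2 proteins, the transporter encoded by Slc7a9 and the heavy chain rBAT encoded by Slc3a1. Slc7a9 (ENSMUSG00000030492.16, chr7:35448796-35466036, plus strand) had 15.4 and 9.58 CPM in Lats-deleted libraries and 213 and 199.5 CPM in the controls. Slc3a1 (ENSMUSG00000024131.8, chr17:85028376-85064236, plus strand) had 4.10 and 1.3 CPM in Lats-deleted libraries and 34.0 and 63.3 CPM in the controls. Both partners were lower without overlap. The log2 fold change was -4.06, SE 0.29, for Slc7a9 (adjusted p = 0.000266, edgeR) and -4.24, SE 0.57, for Slc3a1 (adjusted p = 0.00225, edgeR). Slc3a1 rested on 16 and 8 counts in the Lats-deleted libraries. Slc1a1, the glutamate and aspartate carrier EAAT3, was lower by less, at 5.9 and 4.71 CPM in Lats-deleted libraries against 21.9 and 14.1 CPM in the controls. Its log2 fold change of -1.78 with an SE of 0.38 (adjusted p = 0.014, edgeR) was not called without control library 1 (adjusted p = 0.155, range over 10 alternatives 0.00019 to 0.155). Slc36a1, the proton-coupled carrier of small amino acids PAT1, had 4 and 12 counts in the Lats-deleted libraries and 3 and 5 in the controls and did not pass the filter.

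On the basolateral side, 3 carriers were measured and all were lower. Slc7a8 encodes LAT2, an exchanger of neutral amino acids (ENSMUSG00000022180.7, chr14:54722209-54781946, minus strand). It had 11.8 and 2.92 CPM in Lats-deleted libraries, against 201 and 222 CPM in the controls, with a log2 fold change of -4.92 with an SE of 0.57 (adjusted p = 0.00127, edgeR). Slc43a2, which encodes LAT4 and lets branched-chain amino acids and phenylalanine out of the cell, had 11 and 8.28 CPM in Lats-deleted libraries and 163 and 186 CPM in the controls. Its log2 fold change was -4.18 with an SE of 0.25 (adjusted p = 0.000192, edgeR). These 2 genes thus fell about as far as the brush-border carriers, and the groups did not overlap. Slc7a7 encodes y+LAT1, which exports cationic amino acids in exchange for neutral ones (ENSMUSG00000000958.10, chr14:54369442-54417780, minus strand). Slc7a7 was lower by less, at 32.1 and 24.5 CPM in Lats-deleted libraries against 137 and 133 CPM in the controls, and its log2 fold change was -2.26 with an SE of 0.23 (adjusted p = 0.000719, edgeR). In Lats-deleted library 2, 22.5% of the Slc7a7 counts were in stomach-like cells and 7.95% in enterocyte-like cells.

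**Figure D2:**
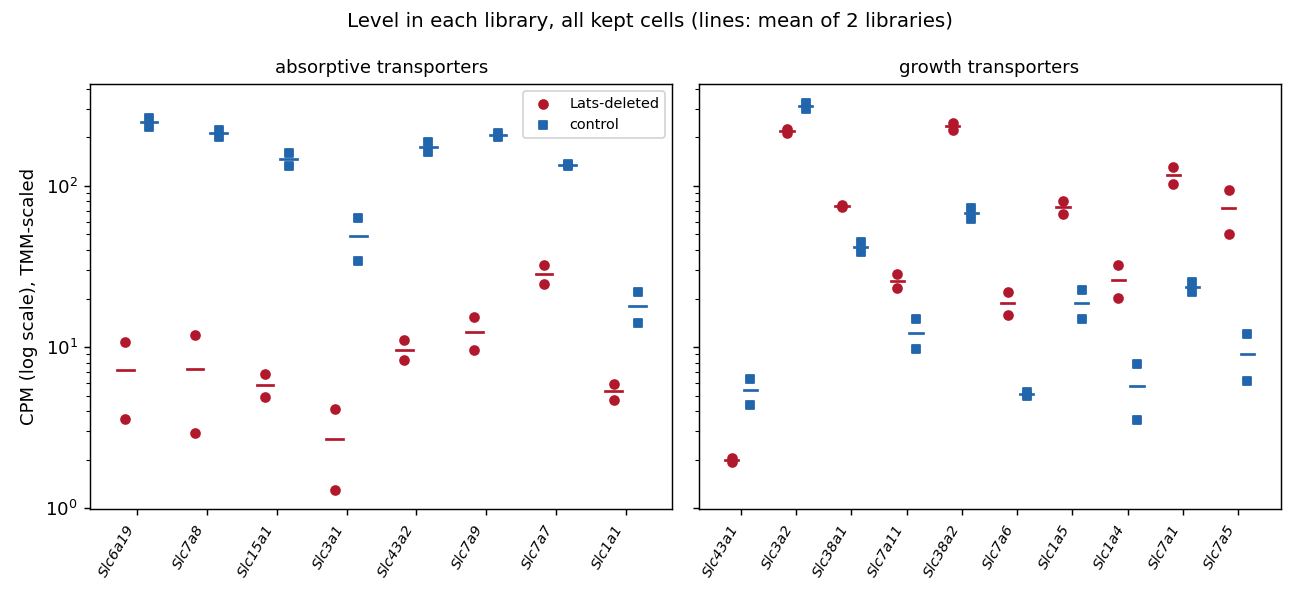
Level of 8 absorptive and 10 growth transporters in each library, all kept cells, in CPM with the TMM-scaled library size on a log axis. Symbols are libraries and lines are means of 2 libraries. The Lats-deleted libraries lie below the controls for all 8 absorptive genes, and above them for 8 of the 10 growth genes, Slc43a1 and Slc3a2 being the others.

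The second group holds the carriers that supply growing cells. Slc7a5 encodes LAT1, the exchanger that brings in leucine and other large neutral amino acids (ENSMUSG00000040010.10, chr8:121881150-121907694, minus strand). It had 50.3 and 94.5 CPM in Lats-deleted libraries, against 12 and 6.15 CPM in the controls, which rested on 17 and 7 counts. Its log2 fold change of 2.96 with an SE of 0.45 (adjusted p = 0.00384, edgeR) was not called without control library 2 (adjusted p = 0.055, range over 10 alternatives 1.96e-26 to 0.055). Slc7a1, the arginine and lysine carrier CAT1, had 102 and 131 CPM in Lats-deleted libraries and 21.9 and 25.5 CPM in the controls, with a log2 fold change of 2.30 with an SE of 0.25 (adjusted p = 0.000955, edgeR). Both genes were higher without overlap, 7.79-fold and 4.93-fold. Slc1a5, the glutamine carrier ASCT2, had 67.2 and 81.0 CPM in Lats-deleted libraries against 22.7 and 14.9 CPM in the controls, 3.90-fold higher (adjusted p = 0.00287, edgeR). Slc1a4, the related carrier ASCT1 of alanine, serine and cysteine, had 20.3 and 32.2 CPM in Lats-deleted libraries against 3.54 and 7.91 CPM in the controls, 4.72-fold higher (adjusted p = 0.013, edgeR). The Slc1a4 call was lost without control library 1 (adjusted p = 0.121, range over 10 alternatives 6.46e-09 to 0.121).

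Among the SNAT carriers, which bring in glutamine and other small neutral amino acids with sodium, Slc38a2 had 246 and 222 CPM in Lats-deleted libraries and 72.9 and 62.4 CPM in the controls. It was 3.45-fold higher (log2 fold change 1.79, SE 0.22, adjusted p = 0.00154, edgeR), a call lost without control library 2 at an adjusted p of 0.0516 (range over 10 alternatives 1.12e-17 to 0.0516). Slc38a1 had 75.9 and 73.7 CPM in Lats-deleted libraries and 38.9 and 44.8 CPM in the controls, 1.79-fold higher with an adjusted p of 0.0241 (edgeR). That call was lost under 4 of 10 alternatives, among them DESeq2 (adjusted p = 0.0921, range 0.00194 to 0.21). Both SNAT genes had groups that did not overlap. Slc7a6 encodes y+LAT2, an exchanger of cationic and neutral amino acids. Slc7a6 had 21.8 and 15.9 CPM in Lats-deleted libraries and 4.96 and 5.27 CPM in the controls, which was 3.66-fold higher (adjusted p = 0.0124, edgeR). Without either control library Slc7a6 was not called (adjusted p = 0.102 and 0.0786, range over 10 alternatives 6.62e-05 to 0.102). Its antisense column Slc7a6os held 42 and 62 counts in the Lats-deleted libraries and 20 and 7 in the controls.

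Carriers of the growth set that were not called included the shared heavy chain. Slc3a2 encodes 4F2hc, the partner of Slc7a5, Slc7a6, Slc7a7, Slc7a8 and Slc7a11 (ENSMUSG00000010095.13, chr19:8706882-8723369, minus strand). Slc3a2 stood at 224 and 214 CPM in Lats-deleted libraries, against 298 and 326 CPM in the controls. Its log2 fold change was -0.51 with an SE of 0.21 (adjusted p = 0.105, edgeR), and it was called lower without either Lats-deleted library (adjusted p = 0.0203 and 0.0393, range over 10 alternatives 0.0203 to 0.513). So in the sums over all kept cells the heavy chain, which serves both sets, did not follow Slc7a5, and its groups did not overlap. Enterocyte-like cells held 92.4% and 91.1% of the Slc3a2 counts in the controls, against 4.24% and 2.20% in the Lats-deleted libraries. The part of that in the Slc3a2 values was not tested. Slc7a11, the cystine-glutamate exchanger xCT, had 23.3 and 28.3 CPM in Lats-deleted libraries and 14.9 and 9.67 CPM in the controls, with a log2 fold change of 1.06 with an SE of 0.33 (adjusted p = 0.0509, edgeR). Under 4 of 10 alternatives Slc7a11 was called higher (range of adjusted p 0.00293 to 0.254). Slc43a1, the leucine carrier LAT3, had 8 and 12 counts in the Lats-deleted libraries and 9 and 5 in the controls (log2 fold change -1.43, SE 0.49, adjusted p = 0.0675, edgeR). Slc38a5, a further SNAT carrier, had 4 and 11 counts in the Lats-deleted libraries and 4 and 5 in the controls and was not tested.

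The amino acid response element, at which ATF4 is known to bind, and sites of HNF4, a nuclear receptor of the enterocyte programme, were looked for in promoter sequence, because growth and absorptive genes moved in opposite directions. RefSeq promoters (GRCm38.p6) were available for 45 of the 64 transporters, 66 sequences of 250 bases before and 50 after a start, and both strands were searched. The response element, as TGATGNAA, was in a promoter of 4 of the 45 genes (Slc15a5, Slc1a4, Slc7a11 and Slc7a7), against 4.51% of 27025 genes. By role it was in 2 of 8 growth genes with a promoter and in 1 of 9 absorptive genes. By call it was in 1 of 7 genes called higher and in 1 of 11 called lower. An HNF4 motif, as CAAAGTCC, was in Slc3a1 alone among the 45, against 1.63% of all genes. The TEAD motif CATTCC, bound by the partners of YAP, was in 10 of the 45 and in 16.6% of all genes. Matches describe letters in a window and are neither sites nor causes. The 3 promoters below show the growth gene with a pair of matches (Slc7a11, not called), the growth gene called higher that has a match, and the absorptive gene with the HNF4 match. A promoter of the absorptive gene Slc7a7, called lower, also held a pair of response element matches and is not shown. Capitals mark the match on either strand, and each sequence runs 5′ to 3′ on the strand of the gene. The windows are chr3:50443564-50443863 (minus strand) for Slc7a11, chr11:20332664-20332963 (minus strand) for Slc1a4 and chr17:85028097-85028396 (plus strand) for Slc3a1.
Slc7a11: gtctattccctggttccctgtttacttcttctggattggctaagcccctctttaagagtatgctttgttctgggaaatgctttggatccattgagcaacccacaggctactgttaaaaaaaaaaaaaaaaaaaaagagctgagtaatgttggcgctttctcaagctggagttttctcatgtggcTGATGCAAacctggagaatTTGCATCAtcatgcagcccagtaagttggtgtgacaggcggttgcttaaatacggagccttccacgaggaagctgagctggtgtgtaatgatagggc
Slc1a4: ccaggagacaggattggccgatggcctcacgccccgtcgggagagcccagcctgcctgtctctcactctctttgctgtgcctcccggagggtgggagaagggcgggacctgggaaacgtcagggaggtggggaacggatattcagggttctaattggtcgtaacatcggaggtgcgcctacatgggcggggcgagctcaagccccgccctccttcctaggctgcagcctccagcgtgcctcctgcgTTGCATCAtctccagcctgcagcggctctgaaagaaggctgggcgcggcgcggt
Slc3a1: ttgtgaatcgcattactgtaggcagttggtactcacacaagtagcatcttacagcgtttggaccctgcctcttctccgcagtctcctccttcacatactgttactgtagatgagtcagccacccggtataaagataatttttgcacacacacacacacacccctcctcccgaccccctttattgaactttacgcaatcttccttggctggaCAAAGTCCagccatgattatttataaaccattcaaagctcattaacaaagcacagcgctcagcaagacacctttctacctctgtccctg
The matches of Slc7a11 begin 66 and 47 bases before the start, that of Slc1a4 begins 4 bases before it, and that of Slc3a1 begins 39 bases before it.

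Of 18 transporters of neurotransmitters, osmolytes and creatine, 9 were tested, of which 1 was called higher, 3 lower and 5 not, against 15.3% higher and 15.5% lower among all genes. With so few genes the counts say nothing about the list. Slc6a4, the serotonin transporter, had 7.95 and 5.85 CPM in Lats-deleted libraries and 46.7 and 71.2 CPM in the controls, with a log2 fold change of -3.10 with an SE of 0.33 (adjusted p = 0.000966, edgeR). Of its 31 counts in Lats-deleted library 1, 61.3% were in stromal-like and 9.68% in enterocyte-like cells, and of its 36 counts in Lats-deleted library 2, 13.9% were in stromal-like and 27.8% in enterocyte-like cells. In control libraries 1 and 2, 86.4% and 80.2% of the Slc6a4 counts were in enterocyte-like cells. Slc6a8, the creatine transporter, had 203 and 121 CPM in Lats-deleted libraries and 384 and 283 CPM in the controls, 2.06-fold lower with an adjusted p of 0.0453 (edgeR). That call was lost without either control library (adjusted p = 0.324 and 0.145, range over 10 alternatives 1.09e-10 to 0.324). Slc1a2, a glutamate carrier, had 8.21 and 5.85 CPM in Lats-deleted libraries and 17 and 15.8 CPM in the controls, with an adjusted p of 0.0395 (edgeR) that rose above 0.05 under 6 of 10 alternatives, up to 0.21 (lowest 0.00494). Slc6a9, the glycine transporter GlyT1, went the other way, with 29.0 and 36.9 CPM in Lats-deleted libraries and 4.25 and 10.5 CPM in the controls, 4.58-fold higher with an adjusted p of 0.00977 (edgeR). Slc6a9 passed the filter only through the Lats-deleted libraries. Without control library 1 Slc6a9 was not called (adjusted p = 0.0853, range over 10 alternatives 3.4e-09 to 0.0853). Slc6a6, the taurine transporter, had 665 and 559 CPM in Lats-deleted libraries and 370.3 and 399 CPM in the controls and did not pass (log2 fold change 0.67, SE 0.22, adjusted p = 0.0614, edgeR). The glutamate carrier Slc1a3 differed between the Lats-deleted libraries themselves, with 12.1 and 44.0 CPM, while the controls had 27.6 and 28.1 CPM.

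Of the 7 transporters of lysosomes and other organelles, 5 were tested. Slc15a4, the lysosomal carrier of histidine and peptides, had 29.0 and 28.7 CPM in Lats-deleted libraries and 9.91 and 12.3 CPM in the controls, 2.61-fold higher (adjusted p = 0.0134, edgeR). Leaving out either control library ended that call (adjusted p = 0.118 and 0.0707, range over 10 alternatives 0.000565 to 0.118). Slc38a9, which senses arginine at the lysosome, was not called, with 26.9 and 17.1 CPM in Lats-deleted libraries against 13.5 and 22.9 CPM in the controls. Among 19 further transporters, 9 were tested, of which 1 was called higher and 2 lower, against 15.3% higher and 15.5% lower among all genes. With so few genes these counts say nothing about the set. Slc7a15 had 3.59 and 2.60 CPM in Lats-deleted libraries and 37.5 and 36.9 CPM in the controls, 12.1-fold lower (adjusted p = 0.00053, edgeR), and passed the filter only through the controls. Slc6a18, a neutral amino acid carrier known from the kidney, had 12.8 and 15.4 CPM in Lats-deleted libraries and 28.3 and 41.3 CPM in the controls. It was 2.44-fold lower (adjusted p = 0.02, edgeR), a call lost without either control library (adjusted p = 0.069 and 0.165, range over 10 alternatives 0.000155 to 0.165). Slc6a14, a broad carrier of neutral and cationic amino acids, had 14 and 65 counts in the Lats-deleted libraries and 1 and 0 in the controls. Its ratio of summed counts over scaled library sizes was 20.04, with a 95% counting interval of 3.49 to 801. The adjusted p of 0.0384 (edgeR) became 0.0552 with DESeq2 (range over 8 alternatives 5.36e-05 to 0.196). Slc6a8, Slc6a14, Slc7a3 and Slc38a5 lie on the X chromosome, and the part of the Xist difference in their values was not tested.

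The 23 transporters that did not pass the filter reached at most 5.33 CPM in any library. Counts are given here as sums over the 2 libraries of a group, which together hold 9389421 counts in the Lats-deleted group and 2832300 in the control group. Beside Slc36a1 and Slc38a5, the highest sum was that of Slc36a4, an organelle carrier, with 38 counts in the Lats-deleted group and 6 in the control group. Slc6a11, Slc38a4, Slc38a11, Slc15a2, Slc6a13, Slc15a3 and Slc1a7 had between 15 and 25 counts in the Lats-deleted group and between 4 and 8 in the control group. Slc7a13 had 15 counts in the Lats-deleted group and 0 in the control group. Slc6a12, Slc7a10, Slc36a2, Slc38a8, Slc6a7, Slc1a6, Slc6a3, Slc6a15, Slc15a5, Slc36a3 and Slc7a12 had between 3 and 9 counts in the Lats-deleted group and between 1 and 9 in the control group.

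Summed over the lists, the balance between uptake and growth carriers turned over between the groups. The 9 absorptive genes together had 106 and 67.3 CPM of the plain total in the Lats-deleted libraries and 1054 and 1099 CPM in the controls. The 11 growth genes together had 912 and 947 CPM in Lats-deleted libraries and 440 and 474 CPM in the controls. The ratio of the absorptive to the growth sum was 0.116 and 0.071 in the Lats-deleted libraries, against 2.40 and 2.32 in the controls. The sums are values per library and were not tested. Leaving out the stromal-like and stomach-like cells gave absorptive sums of 109 and 68.1 CPM and growth sums of 917 and 1005 CPM in Lats-deleted libraries.

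The same contrast was seen cell by cell at equal depth. Each cell was thinned to 1000 counts, and intervals are exact (Clopper-Pearson, 95%) and cover counting error only. A count of any absorptive gene was found in 9.37% (7.35 to 11.7) and 6.52% (5.23 to 8.0) of cells in the Lats-deleted libraries, against 57.0% (53.4 to 60.5) and 58.8% (54.4 to 63.1) in the controls. For any growth gene the share was 50.4% (46.7 to 54.1) and 52.6% (49.8 to 55.4) in the Lats-deleted libraries, against 31.1% (27.9 to 34.5) and 36.3% (32.1 to 40.6) in the controls. In cells of other types, where free RNA can give counts, 28.3% and 15.4% of the cells in the cluster led by Zg16 and Defa24 (a goblet and a Paneth cell gene) had a count of an absorptive gene in the control libraries, at medians of 1874 and 2422 counts per cell before thinning. In Lats-deleted library 1, 5.63% of stromal-like cells had one (median 2453 counts), and in Lats-deleted library 2, 3.26% of stomach-like cells (median 4099 counts). Regenerative-like cells of the Lats-deleted libraries, with medians of 6558.5 and 5748 counts, had one in 5.8% and 6.83%. The counting intervals of the stromal-like share (1.56 to 13.8, on 4 of 71 cells) and of the stomach-like share (1.21 to 6.96, on 6 of 184 cells) take in both values. Intervals this wide do not show that the shares are equal. In Lats-deleted library 1, regenerative-like cells held 55 counts of Slc7a7 and 4 of Slc6a19, and enterocyte-like cells held 12 and 32. The source of the absorptive counts in these other cell states was not tested. Of enterocyte-like cells, 59.5% and 57.1% had an absorptive count in the Lats-deleted libraries (medians of 2385 and 1893 counts) and 65.0% and 68.7% in the controls (medians of 1656.5 and 1939 counts).

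Enterocyte-like cells held 31.5% and 16.8% of all absorptive counts in the Lats-deleted libraries, so most lay in other cells, and 94.6% and 92.7% in the controls. Each state was summed per library, and since states are clusters of the same cells, state against state is a description with no test. In the control libraries, the cluster led by Pck1 and Lct (the lactase gene) had 1532 and 1697 CPM of absorptive genes. The cluster led by Apol10a and Ccl25 had 1079 and 1102 CPM, the one led by Ada and Apoa4 had 899 and 876 CPM, and stem-like cells had 273 and 390 CPM. In Lats-deleted library 1 the Apol10a cluster, with 20 cells, had 1229 CPM. The other 14 sums of the Lats-deleted libraries in clusters with at least 20 cells lay between 30.4 and 111 CPM.

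**Figure D3:**
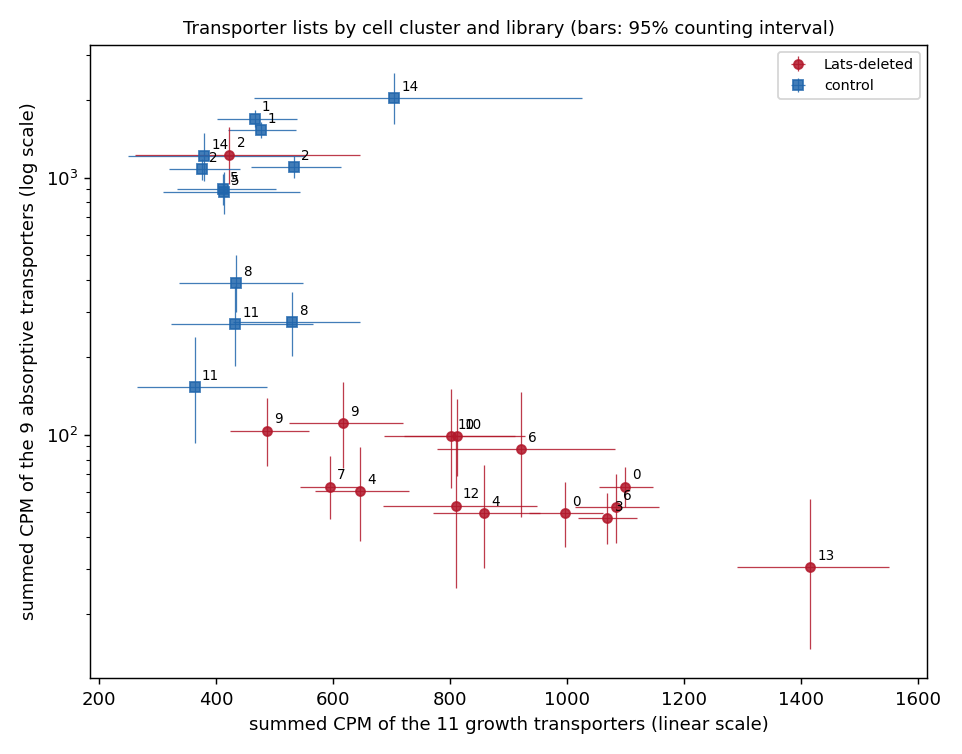
Summed level of the 9 absorptive transporters (y axis, log scale) against that of the 11 growth transporters (x axis, linear scale), each point a cluster of at least 20 cells in 1 library, labelled with the cluster number. Bars are 95% counting intervals. Control points lie at 154 CPM of absorptive genes or more, and Lats-deleted points at 111 CPM or less apart from cluster 2 of Lats-deleted library 1.

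The highest growth sums were in clusters of the Lats-deleted libraries, though not every cluster of theirs stood above the controls. The cluster led by the contractile genes Acta2 and Tagln had 1415 CPM in Lats-deleted library 2. Regenerative-like cells, led by Plat and Tgfb2, had 1099 and 996 CPM in those libraries. The cluster led by Muc1 and Cldn18 had 1068 CPM in Lats-deleted library 2. A cluster with both histone and stomach genes among its leaders had 921 and 1083 CPM in Lats-deleted libraries. Stomach-like cells had 595 CPM in Lats-deleted library 2, and the cluster led by Fbln2 and Ly6c1 had 646 and 858 CPM in Lats-deleted libraries. Stem-like cells of the controls had 530 and 434 CPM, and the 4 enterocyte-like clusters of the controls had between 377 and 705 CPM, a range that takes in 595 and 646 CPM. The value of 705 CPM was that of the cluster led by Tnfsf13 in control library 2, on 20 cells and 27 counts (95% counting interval 465 to 1026). That cluster had 380 CPM in control library 1. The other sums of these clusters lay between 377 and 533 CPM, below 595 and 646 CPM. The sum in enterocyte-like cells rested largely on the heavy chain: Slc3a2 alone had 361 and 386 CPM in the Pck1 cluster of the controls, and 81.9 and 100.6 CPM in their stem-like cells. Slc7a5 separated the states more sharply. It was at 113 and 178 CPM in the histone and stomach gene cluster of the Lats-deleted libraries, at 147 CPM in the Muc1 cluster of library 2 and at 63.2 and 56.7 CPM in regenerative-like cells. Control stem-like cells had 49.2 and 44.0 CPM of Slc7a5, on 9 and 7 counts, and the Pck1 cluster of the controls had 8.99 and 0 CPM. Slc7a1 gave a like order, with 138 and 139 CPM in regenerative-like cells of the Lats-deleted libraries, 92.8 and 94.3 CPM in stem-like cells of the controls and 8.99 and 0 CPM in their Pck1 cluster.

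In control libraries the absorptive carriers did not share one pattern across stem-like cells and the 3 largest enterocyte-like clusters. The clusters led by Apol10a, by Pck1 and by Ada differ in genes known to vary along the villus, and Ada and Apoa4 are known as genes of its tip. Slc6a19 had 21.8 and 37.7 CPM in stem-like cells, 142 and 152 CPM in the Apol10a cluster, 390.3 and 318 CPM in the Pck1 cluster and 340.5 and 446 CPM in the Ada cluster. Slc7a7 had 21.8 and 25.1 CPM in stem-like cells, 147 and 152 CPM in the Apol10a cluster, 179.8 and 199 CPM in the Pck1 cluster and 12.6 and 15.9 CPM in the Ada cluster. So the brush-border carrier was high in the Ada cluster, with the control libraries disagreeing on whether it stood above the Pck1 cluster, while the basolateral exchanger was at or below its stem-like level there. The basolateral Slc7a8 and Slc43a2 were also lower in the Ada cluster, Slc7a8 with 50.4 and 79.6 CPM against 245 and 267 CPM in the Pck1 cluster, and Slc43a2 with 71.5 and 39.8 CPM against 209 and 295 CPM. Slc15a1 had 185 and 104 CPM in the Ada cluster and 227 and 199 CPM in the Pck1 cluster, and Slc7a9 had 198 and 167 CPM and 227 and 300.03 CPM in those clusters. In stem-like cells Slc7a8 was already at 109 and 195 CPM, where Slc43a2 had 0 and 25.1 CPM. Slc1a1 ran the other way, with 54.6 and 25.1 CPM in stem-like cells and 3.60 and 2.52 CPM in the Pck1 cluster, on 10 and 4 counts and 2 and 1 counts.

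**Figure D4:**
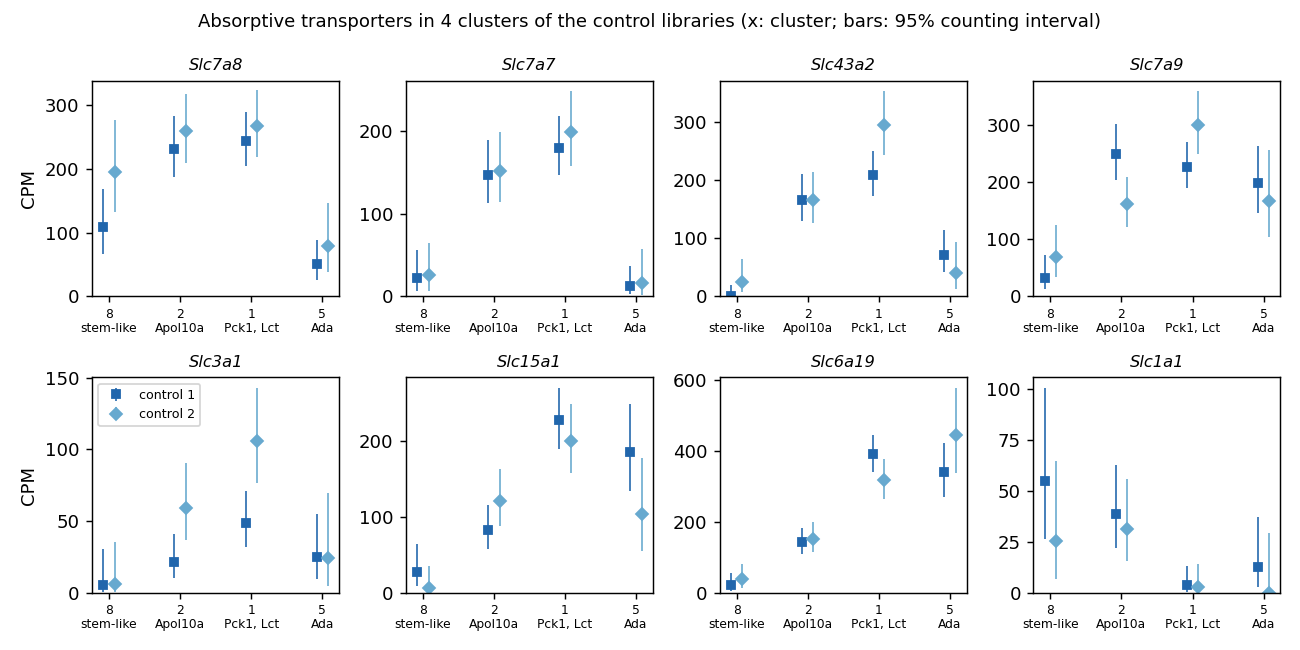
Level of 8 absorptive transporters (y axis, CPM of the cluster's plain total) in 4 clusters of the control libraries (x axis, stem-like cells and the enterocyte-like clusters led by Apol10a, by Pck1 and Lct, and by Ada). Squares and diamonds are the 2 control libraries and bars are 95% counting intervals. Slc7a8, Slc7a7 and Slc43a2 are lower in the Ada cluster than in the Pck1 cluster in both libraries, and Slc6a19 is not.

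Within enterocyte-like cells, no transporter was called between the groups. The Lats-deleted libraries held 37 and 21 such cells and the controls 622 and 396. Their mix of clusters was not the same in every library. The Pck1 cluster held 6 and 8 of them in the Lats-deleted libraries and 262 and 159 in the controls. For the Apol10a cluster the numbers were 20 and 8 against 214 and 149, and for the Ada cluster 10 and 3 against 113 and 68. The part of this mix in the values below was not tested. Of 5834 genes tested, 0.171% were called with edgeR's quasi-likelihood test, and 6.98% had an unadjusted p under 0.05. Of the 18 transporters tested, 0 were called by edgeR and 0 by DESeq2, and 2 had an unadjusted p under 0.05 with edgeR (Slc15a1 and Slc7a1) and 1 (Slc7a1) with DESeq2. Slc6a19 had 384 and 259 CPM in Lats-deleted libraries, on 32 and 14 counts, against 313 and 285 CPM in the controls. Slc7a9 had 216 and 222 CPM in Lats-deleted libraries and 251 and 246 CPM in the controls, and Slc7a8 had 359.9 and 203 CPM in Lats-deleted libraries against 222 and 255 CPM in the controls. So these levels stood near each other or overlapped between the groups, unlike those of all kept cells. Slc15a1 had 48.0 and 148 CPM in Lats-deleted libraries, on 4 and 8 counts, against 188 and 167 CPM in the controls (log2 fold change -1.01, SE 0.42, adjusted p = 0.579, edgeR). Slc3a2 had 444 and 536 CPM in Lats-deleted libraries and 333 and 390.2 CPM in the controls (adjusted p = 0.808, edgeR). Enterocyte-like cells, 5.10% and 1.63% of the cells in the Lats-deleted libraries, carried 76.2% and 63.6% of the Slc6a19 counts and 65.2% and 61.1% of the Slc7a8 counts there. Their part was smaller for the other carriers, with 30.0% and 20.3% of the Slc7a9 counts, 21.1% and 19.0% of the Slc15a1 counts, 32.6% and 17.6% of the Slc43a2 counts and 9.6% and 7.95% of the Slc7a7 counts in the Lats-deleted libraries. With so few cells, a difference of the size of the standard errors was not detectable. These were 0.27 to 0.42 on the log2 scale for Slc6a19, Slc7a8, Slc7a9, Slc43a2, Slc7a7 and Slc15a1. For Slc3a1, with 8 and 0 counts in the Lats-deleted libraries, the standard error was 0.65. Larger differences also went uncalled, among them that of Slc15a1. Slc7a1 had a log2 fold change of 2.36 with an SE of 0.94 (adjusted p = 0.565, edgeR). The lack of a call thus does not exclude differences of that size.

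**Figure D5:**
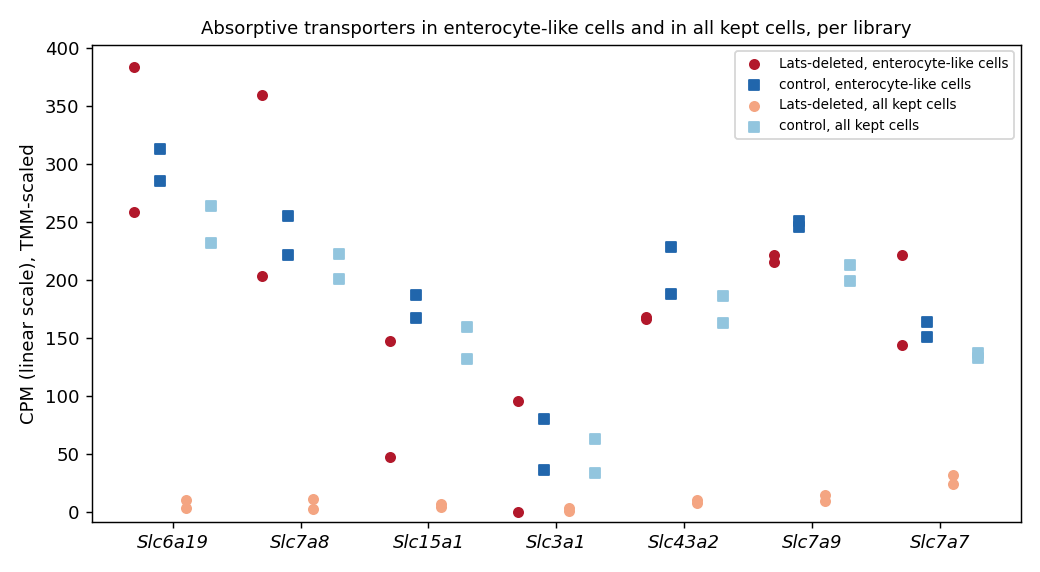
Level of 7 absorptive transporters in enterocyte-like cells (dark symbols) and in all kept cells (light symbols), in CPM with the TMM-scaled library size, each point 1 library. In enterocyte-like cells the Lats-deleted values of Slc6a19, 384 and 259, lie around the control values of 313 and 285, whereas in all kept cells they are 10.8 and 3.57 against 264 and 232.

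A like comparison in progenitor-like cells could not be made on the clusters used above, because the Lats-deleted libraries held 4 and 5 stem-like cells. With finer clusters (Leiden resolution 2), stem-like and cycling progenitor-like cells numbered 28 and 119 in the Lats-deleted libraries and 100 and 58 in the controls. Most of the Lats-deleted cells (26 and 114) were in a cycling progenitor-like cluster without a control cell, and all control cells were in the 2 stem-like clusters, so the class holds different clusters in the groups. Of 3761 genes tested there, 22.0% were called with edgeR (11.7% higher, 10.3% lower), and of 13 transporters, 2 were higher and 1 lower. Slc7a5 had 128 and 238 CPM in the Lats-deleted cells and 61.0 and 58.8 CPM in the control cells (log2 fold change 1.67, SE 0.45, adjusted p = 0.029, edgeR). Its heavy chain Slc3a2 had 241 and 297 CPM in the Lats-deleted cells and 166 and 109 CPM in the control cells. Slc3a2 was not called there (log2 fold change 0.95, SE 0.35, adjusted p = 0.0822, edgeR). Slc6a6 had 909 and 743 CPM in the Lats-deleted cells and 438 and 269 CPM in the control cells (log2 fold change 1.20, SE 0.31, adjusted p = 0.0258, edgeR). Slc7a8 had 28.4 and 0 CPM in the Lats-deleted cells, on 4 and 0 counts, and 166 and 209.9 CPM in the control cells (adjusted p = 0.00672, edgeR).

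The difference of the Lats effect between both cell classes was tested at that resolution as the class by group term, enterocyte-like minus progenitor-like, with the library as a block. Of 4772 genes, 6.83% were called with edgeR (4.51% with a higher term), and of 20 transporters, 4 had a higher term and the rest were not called. They were Slc7a8 (log2 term 4.65, SE 0.87, adjusted p = 0.00496), Slc6a19 (4.84, SE 0.92, adjusted p = 0.00553), Slc7a9 (3.73, SE 0.93, adjusted p = 0.0267) and Slc6a4 (4.43, SE 1.18, adjusted p = 0.0374), all by edgeR. Thus for Slc7a8 the effect in progenitor-like cells lay below that in enterocyte-like cells, with the cluster make-up given above. The terms of Slc6a19, Slc7a9 and Slc6a4 had the same sign. Those genes did not pass the filter on low counts in progenitor-like cells alone, so their terms rest on low counts there.

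Partners of the carriers were read from lists of genes. Of 18 uptake partners (peptidases of the brush border, the chaperones of B0AT1 and further transporters), 15 were tested, 13 were lower and the other 2 were not called, with a median log2 fold change of -4.95 against 0.05 over all genes. Among all genes, 15.5% were lower and 15.3% higher. Slc6a20a, the proline carrier SIT1, had 5.13 and 6.33 CPM in Lats-deleted libraries and 294 and 237 CPM in the controls. Ace, a dipeptidase that also converts angiotensin, had 7.44 and 6.82 CPM in Lats-deleted libraries and 209 and 249 CPM in the controls. Mep1b, a meprin subunit, had a log2 fold change of -5.35 with an SE of 0.30 (adjusted p = 0.000184, edgeR), and Slc16a10, the basolateral carrier of aromatic amino acids TAT1, had -4.95 with an SE of 0.29 (adjusted p = 0.000189, edgeR). Of 24 ATF4 targets, the genes of amino acid synthesis, tRNA charging and stress that ATF4 is known to activate, all were tested, 19 were higher and 1 (Aldh1l2) lower, with a median of 1.74. Phgdh, the first enzyme of serine synthesis, had 119.8 and 123 CPM in Lats-deleted libraries and 9.20 and 5.27 CPM in the controls (adjusted p = 0.000292, edgeR). Asns, asparagine synthetase, had 118 and 165 CPM in Lats-deleted libraries and 22.7 and 17.6 CPM in the controls (adjusted p = 0.000737, edgeR). Eif4ebp1, an inhibitor of translation, and Gars, which charges glycine to its tRNA, had log2 fold changes of 2.78, SE 0.22, and 2.59 with an SE of 0.23 (adjusted p = 0.000338 and 0.000461, edgeR).

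Of 19 tested genes of amino acid sensing by mTORC1, 4 were higher and 3 lower, near the 15.3% and 15.5% of all genes, with a median log2 fold change of 0.06 against 0.05 over all genes. Sesn1, a sestrin that holds back mTORC1, had 7.70 and 4.39 CPM in Lats-deleted libraries and 90.6 and 76.5 CPM in the controls (adjusted p = 0.000447, edgeR). Rragd, a Rag GTPase, had 8.21 and 5.20 CPM in Lats-deleted libraries and 62.3 and 58.9 CPM in the controls (adjusted p = 0.000633, edgeR). Rraga, another Rag GTPase, was higher, at 81.1 and 94.5 CPM in Lats-deleted libraries against 33.3 and 37.8 CPM in the controls (adjusted p = 0.00557, edgeR), and Lamtor2, of the complex that anchors them, was lower with a log2 fold change of -0.81 with an SE of 0.20 (adjusted p = 0.0219, edgeR). Of 6 tested genes of glutathione synthesis, recycling and turnover, 2 were higher (Gclc and Ggct) and 1 (Cth) lower. The synthesis uses the cystine brought in by Slc7a11. The median log2 fold change of the 6 genes was 0.40 against 0.05 over all genes, and with so few genes the counts say nothing about the list. Cth, which makes cysteine from cystathionine, had 10.8 and 5.68 CPM in Lats-deleted libraries and 117 and 113 CPM in the controls (adjusted p = 0.000445, edgeR).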

How the data were processed

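Per the file headers, the authors deposited raw counts with cells in rows and genes in columns, in a table for each library. No source used here says whether molecular identifiers were counted. The submitters' processing notes name RSEM 1.3.0, SAMtools 1.3.1, Bowtie 1.1.1.1 and mm10, with no role given. Coordinates come from GENCODE M21 (GRCm38).

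Barcodes with fewer than 1000 counts, fewer than 300 genes or more than 30% mitochondrial counts were dropped. Kept cells were clustered without the 64 member genes (scanpy 1.11.5, 2000 variable genes, 30 principal components, 15 neighbours, leidenalg 0.10.2 at resolution 1, seed 1). A cluster was named from marker lists when at least 3 markers were 1.5-fold up in it and seen in 10% of its cells, the mean log2 fold change was above 0.5 and its 10 leading genes held no marker of any list, or more of its own list than of any other. No doublet caller was run here.

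Counts were summed per library over all kept cells, or over a cell class with at least 20 cells in every library. After filterByExpr and TMM scaling, the sums were tested in edgeR 4.0.16 (quasi-likelihood, R 4.3.3), with Benjamini-Hochberg adjustment over all genes. DESeq2 1.42.0 was an alternative. The test code was tested on simulated data. A positive log2 fold change is higher in Lats-deleted libraries. CPM of single genes in all kept cells or in a tested class use the TMM-scaled library size, and CPM of lists, and of genes within a cluster, use the plain total. Precision follows from 3562565 and 5826856 kept counts in the Lats-deleted libraries and 1603796 and 1228504 in the controls.

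The roles, lists and members were chosen with earlier results of these data known. Named with values in every library are the absorptive and growth lists and every other member called in all kept cells, and up to 4 genes of each pathway list by smallest p. The values of 1 untested transporter and of 1 cluster are not reported here. Slc6a6, Slc1a3 and Slc38a9 are named beyond that rule, after their values were seen. A planned test in progenitor-like cells could not be run at resolution 1, and its alternative at resolution 2 is reported. Markers of leukocytes summed to 75.2 and 95.9 CPM in Lats-deleted libraries and 176 and 585 CPM in the controls, those of endothelium to 16.3 and 10.6 CPM in Lats-deleted libraries and 20.0 and 20.4 CPM in the controls, and those of erythroid cells to 8.42 and 8.58 CPM in Lats-deleted libraries and 11.8 and 10.6 CPM in the controls.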

Additional observations from a re-analysis of the deposited data

Results flagged for a closer look

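For 4 transporters the effect of Lats deletion differed between enterocyte-like and progenitor-like cells, each by edgeR's quasi-likelihood test of the difference itself at Leiden resolution 2 (enterocyte-like minus progenitor-like, adjusted over all genes tested). The log2 difference was 4.84 for Slc6a19, 4.65 for Slc7a8, 4.43 for Slc6a4 and 3.73 for Slc7a9. In progenitor-like cells Slc7a8 had a log2 fold change of -4.66 with an SE of 0.89 (adjusted p = 0.00672, edgeR), and in enterocyte-like cells it had 0.31 with an SE of 0.29 (adjusted p = 0.92, edgeR, clusters at resolution 1). Slc6a19, Slc6a4 and Slc7a9 did not pass the filter on low counts in progenitor-like cells alone, so their differences rest on low counts there. Different clusters make up the progenitor-like class in the Lats-deleted and the control libraries, and the part of that in the 4 differences was not tested.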

How the results depend on the processing

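In all kept cells, 223 recomputed log2 fold changes of the named transporters kept their direction and their side of the threshold, 26 kept the direction and were no longer called, 6 became called and none of them changed sign. Slc15a1, Slc1a5, Slc3a1, Slc43a2, Slc6a19, Slc6a4, Slc7a1, Slc7a15, Slc7a7, Slc7a8 and Slc7a9 stayed called under every alternative run. Leaving out 1 library gave between 1228 (without control library 1) and 5387 called genes, between 4 and 13 transporters higher, 3 (without control library 2) to 8 growth genes higher and 0 to 1 lower (Slc3a2, without either Lats-deleted library). A lone library is assumed to vary like the other group. Without a filter on low counts 61.5% of the calls were higher, against 49.7% with it, and the median log2 fold change was 0.15 against 0.05. The summed growth level had a log2 ratio of 1.03 with the plain total and 0.78 with the TMM-scaled library size.

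In enterocyte-like cells, 10 genes were called, 3 with DESeq2, 55 without the filter, 16 with the replicate block, 22 at Leiden resolution 2 and 6 to 48 on leaving out 1 library, and no transporter was called under any of these. Values of genes that changed sign there were not called. Leaving out 1 Lats-deleted library moved Slc38a2 between -0.70 and 0.48, Slc3a1 between -8.32 and 0.61, Slc6a19 between -0.34 and 0.22, Slc6a4 between -0.90 and 1.46, Slc7a15 between -1.37 and 0.58, Slc7a7 between -0.26 and 0.36 and Slc7a8 between -0.36 and 0.46 on the log2 scale. Without the filter the values were -0.056 for Slc38a2, -0.29 for Slc3a1, -0.16 for Slc6a19, -0.10 for Slc7a15 and -0.14 for Slc7a7, and Slc3a1 was at -0.18 with DESeq2 and -0.16 at resolution 2. The cause was not tested.

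The mean share of cells with an absorptive count was 7.94% in the Lats-deleted libraries and 57.9% in the controls at 1000 counts per cell, 12.8% and 76.0% at 2000 counts, and 24.5% and 74.8% without thinning. For growth genes the Lats-deleted and control means were 51.5% and 33.7% at 1000 counts, 72.9% and 55.2% at 2000 counts and 80.2% and 52.8% without thinning.

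Same-numbered libraries are not said to be paired, and the correlation of their deviations was 0.047. With the replicate block 4162 genes were called in all kept cells, 3779 of them among the 3869 called without it. Alternatives of the progenitor-like test and of the class by group term other than resolution 2 were not run, nor enterocyte-like cells of at least 2000 counts, of which the Lats-deleted libraries had under 20 in each. Leaving out stromal-like and stomach-like cells leaves the enterocyte-like cells as they are. Low counts limit the 23 untested transporters, and the 37 and 21 cells of the Lats-deleted libraries limit the enterocyte-like comparison.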
